A study of Mus musculus with 4 samples.

Results

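Complex I of the respiratory chain was followed through the rows of a mouse Ribo-seq table whose gene symbol begins with Nduf. Rows named as pseudogenes (symbols ending in -ps) and Rik symbols were left out. This gave 46 of the 16442 genes: 13 Ndufa, 11 Ndufb, 2 Ndufc, 8 Ndufs and 3 Ndufv subunits, the acyl carrier protein Ndufab1, and 8 Ndufaf assembly factors. The 4 libraries came from leukaemia stem cells, taken from bone marrow of leukaemic C57BL/6 mice, 2 labelled Rreb1 knockout (KO) and 2 labelled wild type (WT). In each, micrococcal nuclease left the stretches of mRNA held by ribosomes (footprints), and part of the same lysate was kept undigested as input RNA. The type of knockout, any Cre driver, the leukaemia model, the age of the mice and the marker gate behind the name leukaemia stem cell are not stated. The series describes 2 biological replicates per group without saying which animals they came from, and the tests weigh differences against library-to-library spread alone.

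Complex I, NADH:ubiquinone oxidoreductase, takes electrons from NADH, passes them along a flavin and a chain of iron-sulphur clusters to ubiquinone, and pumps protons across the inner mitochondrial membrane. Its catalytic core is built from nuclear subunits of the Ndufs and Ndufv classes and from subunits encoded in mitochondrial DNA. Around the core sits a shell of small accessory subunits, mostly of the Ndufa, Ndufb and Ndufc classes, and assembly factors, among them the Ndufaf proteins, join the modules without staying in the finished enzyme.

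3 values per gene were used. The footprint level is in RPKM, footprint reads per kilobase of coding sequence and 1000000 assigned reads. The input RNA level, also in RPKM, was obtained from the deposited footprint value and the deposited translational efficiency (TE), which is the ratio of the 2 levels with 1 added to each. Differences are log2 values of the KO-labelled over the WT libraries, given with their standard error (n = 2 libraries per group). Genes were tested with limma across the 6389 genes that reached 20 footprint reads per 1000000 in at least 2 libraries, and "rose" or "fell" refers to a Benjamini-Hochberg adjusted p under 0.05. Of the 46 members, 33 were tested and 13 were too sparse in footprints.

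The libraries differed in depth, and Rreb1 RNA did not bear out their labels. Assigned footprint reads numbered 364087 and 274183 in the KO-labelled libraries, against 878068 and 656249 in WT, while assigned input reads lay between 17037492 and 19121997. Correlations of log2 footprint levels over genes were 0.782 between the KO-labelled libraries and 0.940 between the WT libraries, against 0.996 and 0.997 for input RNA. Rreb1, the targeted transcription factor, had input RNA of 6.10 and 6.93 RPKM in the KO-labelled libraries, against 3.33 and 3.25 RPKM in WT. Its footprints were 12.9 and 8.19 RPKM in the KO-labelled libraries, against 14.1 and 12.8 RPKM in WT. Its TE was 1.95 and 1.16 in the KO-labelled libraries, against 3.48 and 3.25 in WT (difference -1.16, limma adjusted p 0.343). The RNA difference was 0.81 (limma adjusted p 0.000283) and the footprint difference -0.36 (adjusted p 0.672), so the labelled knockout was not borne out by lower Rreb1 RNA, and directions below are those of the library labels. For KO replicate 2 the genotype entry is Rreb2-KO, and its title placed that library with KO. Summed input RNA of 6 stem and progenitor genes (Kit, Cd34, Flt3, Hoxa9, Meis1, Myb) was 159 and 155 RPKM in the KO-labelled libraries, against 84.6 and 84.3 RPKM in WT, with no gene at 0 in either group. Summed levels of the lists for other cell types were higher in the KO-labelled libraries, except those for B cells and macrophages. 7 mast cell, basophil and eosinophil genes summed to 511 and 494 RPKM in the KO-labelled libraries, against 35.9 and 34.1 RPKM in WT. 6 T and NK cell genes summed to 433 and 365 RPKM, against 17.2 and 17.3 RPKM in WT, and 6 erythroid genes to 232 and 290 RPKM, against 49.5 and 43.3 RPKM in WT. 4 megakaryocyte genes summed to 20.8 and 22.2 RPKM against 1.15 and 1.64 RPKM in WT, and 4 stromal and endothelial genes to 72.5 and 79.7 RPKM against 11.7 and 12.1 RPKM in WT. 2 B cell genes summed to 28.3 and 26.4 RPKM against 43.0 and 40.5 RPKM in WT, and 5 macrophage genes to 57.0 and 57.6 RPKM against 134 and 139 RPKM in WT. Both KO-labelled libraries lay above both WT libraries for 6 of the 7 mast cell, basophil and eosinophil genes, 5 of 6 T and NK, 4 of 6 erythroid, 2 of 4 megakaryocyte, 3 of 4 stromal and endothelial, 1 of 2 B cell, 2 of 5 macrophage and 4 of 6 stem and progenitor genes. Both lay below for 1 erythroid, 1 B cell, 3 macrophage and 1 stem and progenitor gene. None of these genes was at 0 in a whole group, and the part of cell makeup, depth or labelling in the values that follow was not tested. In bulk lysates, a change in the cells present and a change in RNA per cell cannot be told apart.

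Complex I transcripts were more abundant in the input RNA of the KO-labelled libraries. RNA of 25 of the 33 tested members rose and that of 2 fell, Ndufaf7 among them, while 6 were not called. Over all tested genes, 33.1% rose and 27.7% fell. At an unadjusted p under 0.05, 26 members were higher and 2 lower, against 35.7% and 29.3% of all tested genes. The members' median RNA difference was 0.47, against 0.043 over all tested genes, and in 27 members both KO-labelled libraries lay above both WT libraries (44.4% of all tested genes). The 2 KO-labelled libraries were alike in this, with median differences of 0.49 and 0.44 from the WT mean. Counting also the 13 sparse members, whose input RNA was still measured, 38 of 46 had non-overlapping groups with KO-labelled on top. The share over all genes, tested or not, was not computed for comparison.

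The largest RNA increases were about 1 on the log2 scale, in Ndufa3, Ndufa8 and Ndufb7. Ndufa3, a small subunit of the membrane arm, had 195 and 220 RPKM of input RNA in the KO-labelled libraries, against 99.9 and 102 RPKM in WT (difference 1.03 ± 0.077, adjusted p 3.55e-05). Ndufa8, a twin-cysteine subunit that faces the intermembrane space, had 274 and 280 RPKM in the KO-labelled libraries, against 136 and 138 RPKM in WT. Ndufb7, another intermembrane-space subunit with the same fold, had 128 and 142 RPKM in the KO-labelled libraries, against 68.8 and 65.2 RPKM in WT. For all of these, the lower KO-labelled library lay well above the higher WT one. Ndufv1, the flavin-bearing core subunit, stands at the other end of the set with 61.0 and 54.2 RPKM in the KO-labelled libraries, against 60.2 and 59.6 RPKM in WT, and its groups overlapped.

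The upstream sequences of these 4 genes are shown because they set the members with the largest RNA increases beside one whose RNA groups overlapped. Ndufa8 is shown for its RNA value, outside the rule that chose the other named genes. Each is the run of 250 bases before the gene's RefSeq start, on the gene's own strand, in build GRCm38.p6, with matches to the searched motifs in capitals.
Ndufa3, chr7:3617123-3617372, plus strand: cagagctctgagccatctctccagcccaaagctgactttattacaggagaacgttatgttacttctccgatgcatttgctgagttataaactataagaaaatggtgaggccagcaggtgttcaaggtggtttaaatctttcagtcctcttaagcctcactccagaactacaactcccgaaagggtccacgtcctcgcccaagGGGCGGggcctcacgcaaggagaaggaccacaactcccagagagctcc
Ndufa8, chr2:36049339-36049588, minus strand: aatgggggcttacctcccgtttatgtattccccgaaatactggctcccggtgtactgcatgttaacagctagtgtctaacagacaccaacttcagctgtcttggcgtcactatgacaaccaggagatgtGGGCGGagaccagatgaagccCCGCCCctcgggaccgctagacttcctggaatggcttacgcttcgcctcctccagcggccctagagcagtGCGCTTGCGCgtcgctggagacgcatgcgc
Ndufb7, chr8:83566508-83566757, plus strand: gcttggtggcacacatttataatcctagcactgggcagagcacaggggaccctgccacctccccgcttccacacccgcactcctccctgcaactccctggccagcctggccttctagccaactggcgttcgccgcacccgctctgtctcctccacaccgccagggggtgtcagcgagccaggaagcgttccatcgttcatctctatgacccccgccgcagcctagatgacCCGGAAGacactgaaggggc
Ndufv1, chr19:4012756-4013005, minus strand: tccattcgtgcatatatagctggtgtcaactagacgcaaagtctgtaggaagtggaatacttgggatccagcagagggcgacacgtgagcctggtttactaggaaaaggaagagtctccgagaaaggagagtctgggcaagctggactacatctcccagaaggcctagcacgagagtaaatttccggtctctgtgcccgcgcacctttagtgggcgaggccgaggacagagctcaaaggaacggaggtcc
The Ndufa3 capitals are GGGCGG, a GC box as read by SP factors. In Ndufa8 they are a GC box on each strand, GGGCGG and its complement CCGCCC, and GCGCTTGCGC, a match on the complementary strand to the motif of nuclear respiratory factor 1, GCGCA and then, after any 1 base, GCGC. In Ndufb7 they are CCGGAAG, an ETS motif, and Ndufv1 had no match.

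5 motifs were searched on both strands in these 250 bases, and 40 of the 46 members had at least 1 window, 42 windows in all. The nuclear respiratory factor 1 motif stood in 8 of the 42 member windows (19.0%), against 9.15% of the windows of tested genes and 3.74% of all 32851 windows. Over the tested members alone it stood in 4 of 31 windows (12.9%). The windows of all members that hold it belong to Ndufa5 (both of its starts), Ndufa8, Ndufa11, Ndufb4, Ndufs5, Ndufs6 and Ndufaf4. The oestrogen-related receptor motif AAGGTCA was in 3 member windows (7.14%, against 2.73% of the windows of tested genes and 4.08% of all windows), those of Ndufb2, Ndufb4 and Ndufs5, and in 1 of the 31 windows of tested members (3.23%). CCGGAAG was in 5 (11.9%, against 15.7% and 6.91%), GGGCGG in 19 (45.2%, against 58.6% and 32.7%), and the YY1 motif AAGATGG in 0 (against 4.67% and 4.49%). Over the tested members alone, these shares were 9.68%, 38.7% and 0%. A match describes these letters only, and factor binding was not measured here.

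Footprints on complex I mRNAs did not follow the RNA. No member's footprints passed the limma test, in which 0.470% of all tested genes fell and 0.595% rose, and limma-voom on recovered reads called no member either. At an unadjusted p under 0.05, 9 members were lower in the KO-labelled libraries and 0 higher, against 12.4% and 5.84% of all tested genes. The median footprint difference of the members was -0.47, against -0.13 over all tested genes, and 27 of 33 differences were below 0 (57.4% of all tested genes). In 16 members both KO-labelled libraries lay below both WT libraries (32.1% of all tested genes), and in 1, Ndufb10, both lay above (20.5%). The KO-labelled libraries differed from each other here: 27 of 33 members were below the WT mean in KO replicate 1 (median -0.79), and 20 of 33 in KO replicate 2 (median -0.31). Of all tested genes, 60.5% were below the WT mean in KO replicate 1 (median -0.22) and 52.5% in KO replicate 2 (median -0.047). The members' medians of -0.79 and -0.31 are also those with the other KO-labelled library left out.

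**Figure D1:**
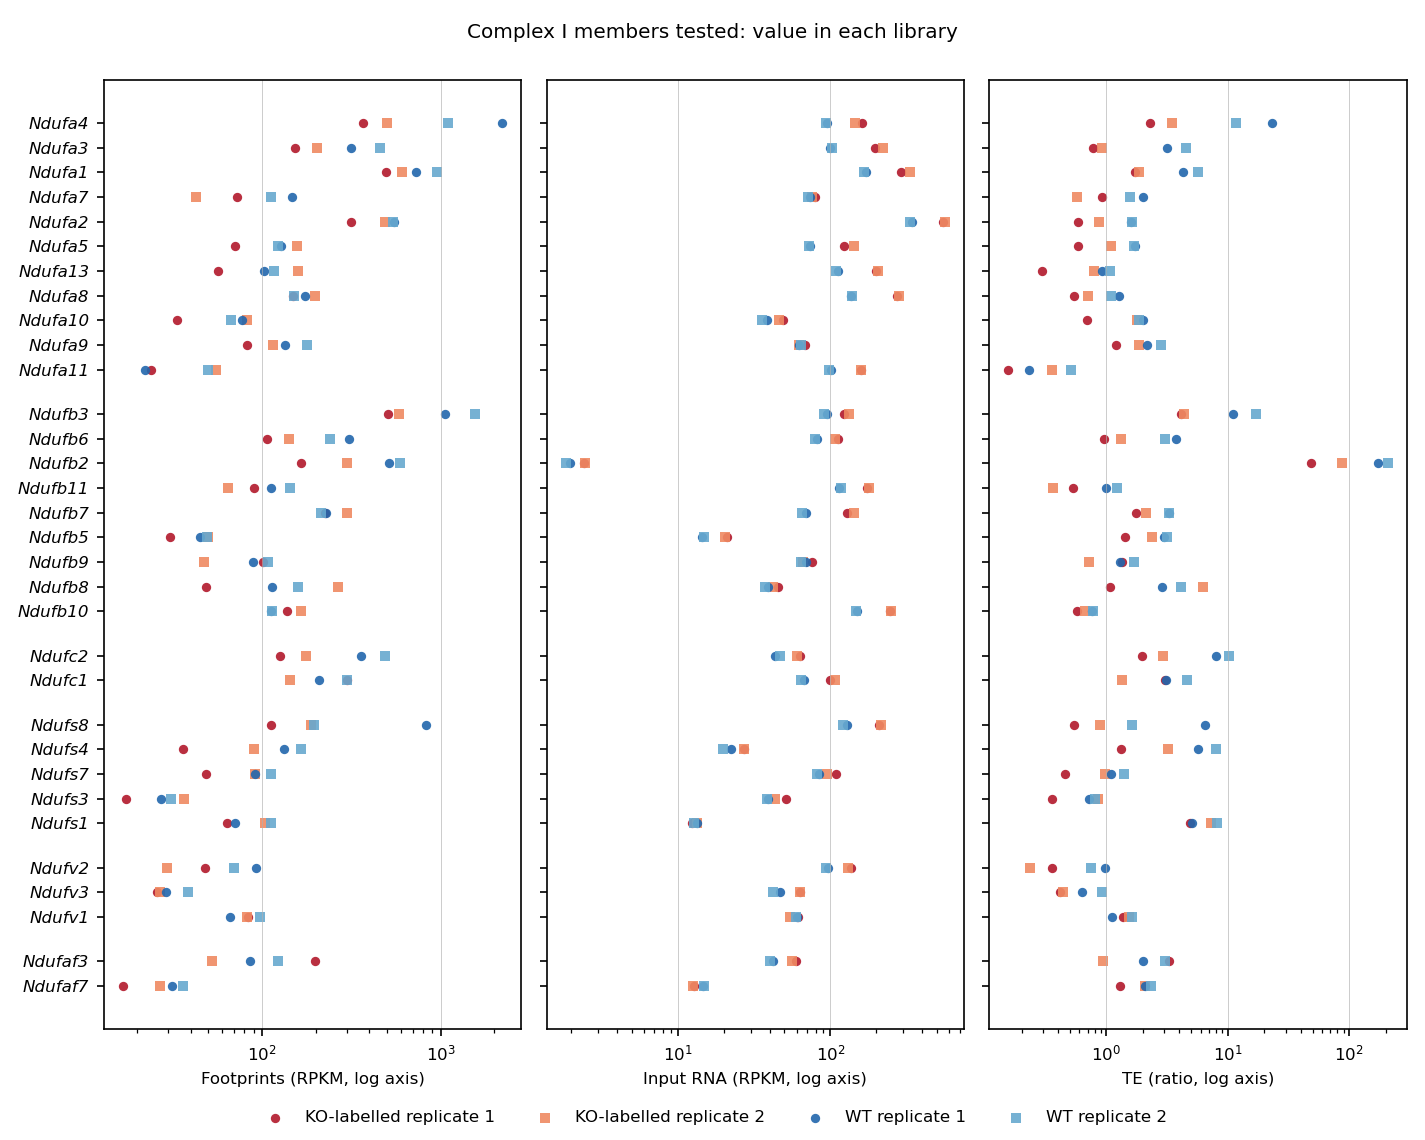
Footprint level, input RNA level and TE of 32 tested members in each of the 4 libraries, on log axes, by symbol class; circles are replicate 1 and squares replicate 2, red shades KO-labelled and blue shades WT. In the RNA panel most KO-labelled points lie right of the WT points, while in the TE panel they lie left of them; Ndufb2 lies apart in TE with 48.3 and 87.3 in the KO-labelled libraries, against 173 and 209 in WT.

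With more RNA and no more footprints, TE of most members was lower in the KO-labelled libraries, although no single member passed the test. limma called 0 members and 0 of all 6389 genes for TE (0% in either direction), and the limma-voom interaction fit on recovered reads called no member. At an unadjusted p under 0.05, TE of 13 members was lower and of 0 higher, against 9.99% and 3.02% of all tested genes. The smallest adjusted p among the members was 0.29 for TE and 0.138 for footprints. The median TE difference of the members was -0.91, against -0.15 over all tested genes. The TE difference was below 0 in 31 of 33 members (59.6% of all tested genes). In 24 members TE of both KO-labelled libraries lay below both WT libraries (32.3%), with 0 the other way round (15.6%). The members' median was -1.15 in KO replicate 1 and -0.81 in KO replicate 2, each against the WT mean. Over all tested genes these medians were -0.25 and -0.090. In the authors' deposited table, 15 of the 33 had a p under 0.05 with the lower mean TE in KO and 0 with the higher, against 14.3% and 4.23% of all tested genes. That deposited p, headed adj.p, matched the p of a one-sided test on untransformed TE without adjustment. The side followed each gene's own data, as genes with lower and with higher mean TE both had a p under 0.05. This threshold is thus looser than the same threshold in a test for a difference in either direction.

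**Figure D2:**
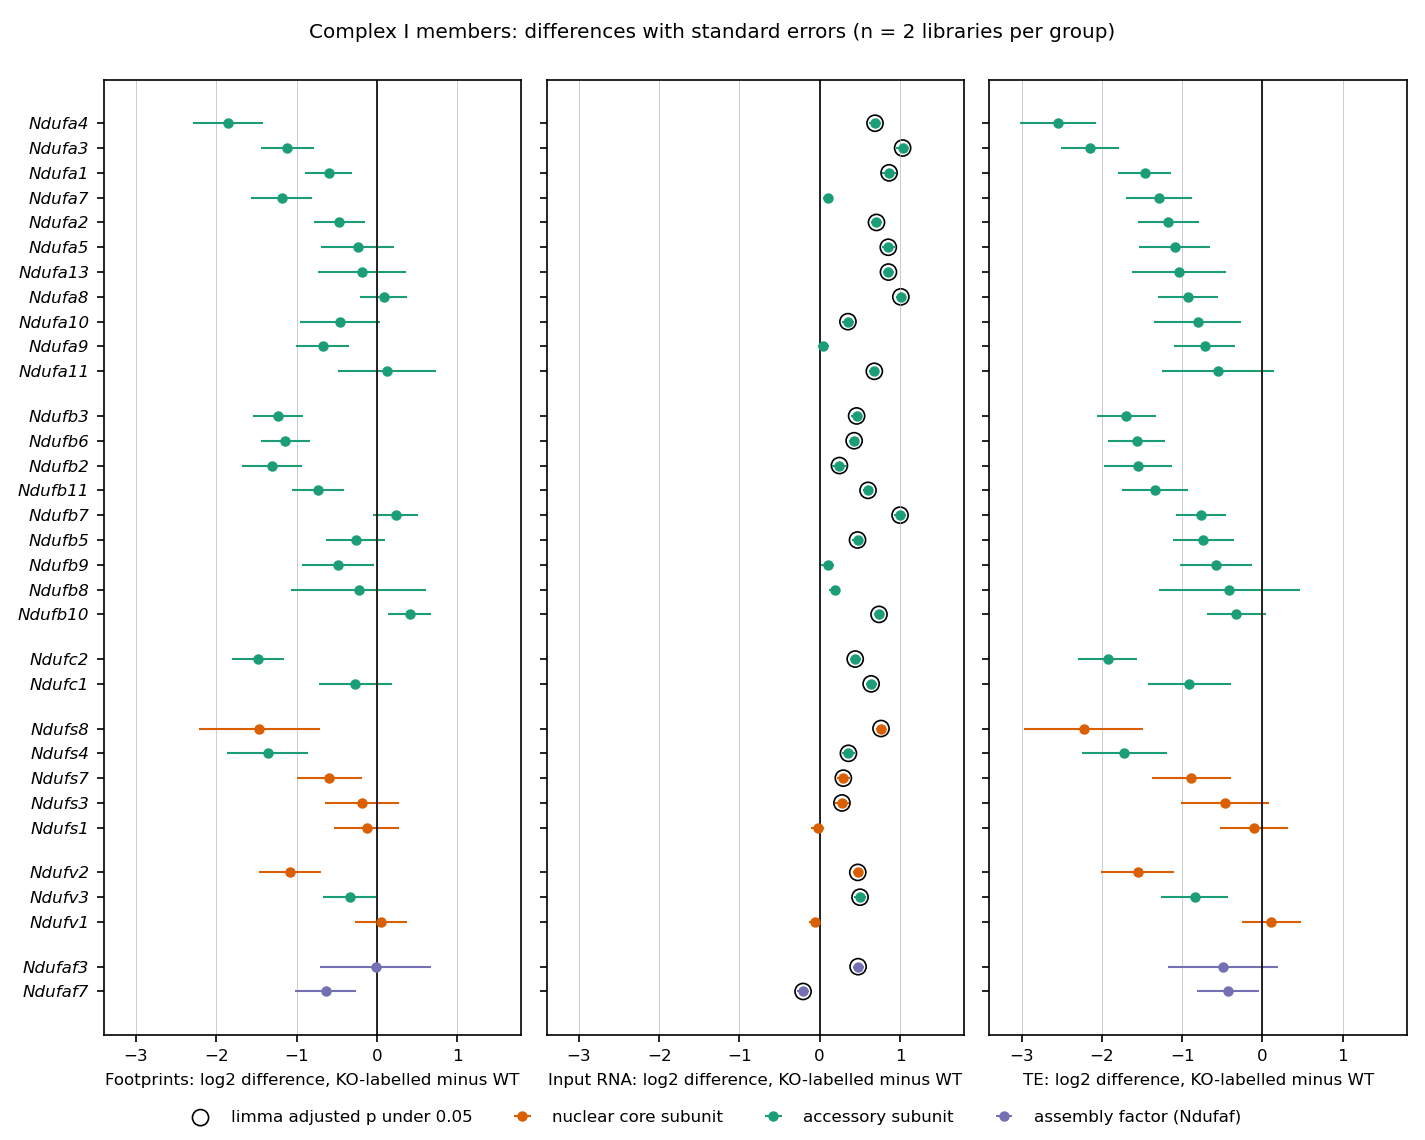
Log2 difference (KO-labelled minus WT) of 32 tested members in footprints, input RNA and TE, with standard errors from the fit (n = 2 libraries per group); colours give core, accessory and assembly factor genes, and a ring marks a limma adjusted p under 0.05. Rings appear in the RNA panel only, 25 right of 0 and 1 left of it, and the TE points lie left of 0 for all but Ndufv1.

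Among the 7 nuclear core subunits, RNA of 4 rose (Ndufs3, Ndufs7, Ndufs8, Ndufv2), while that of Ndufs1 and Ndufv1 was not called. Their median TE difference was -0.47, with 5 of 7 below 0. The same core genes gave a median TE difference of -1.10 from the WT mean in KO replicate 1 and 0.17 in KO replicate 2. Ndufs8, which holds a pair of iron-sulphur clusters next to the quinone site, had footprints of 112 and 189 RPKM in the KO-labelled libraries, against 827 and 196 RPKM in WT. WT replicate 1 alone held 462 of its reads, against 82 in WT replicate 2, and without WT replicate 1 the footprint difference of -1.46 was -0.43. TE of Ndufs8 was 0.545 and 0.879 in the KO-labelled libraries, against 6.44 and 1.63 in WT, so the groups did not overlap even at the lower WT value.

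Ndufv2, an iron-sulphur protein of the NADH-oxidising tip, had footprints of 48.0 and 29.4 RPKM in the KO-labelled libraries, against 93.4 and 69.6 RPKM in WT. Its RNA rose, with 137 and 130 RPKM in the KO-labelled libraries and 96.8 and 94.2 RPKM in WT (difference 0.47 ± 0.065, adjusted p 0.000661). TE of Ndufv2 was 0.356 and 0.233 in the KO-labelled libraries, against 0.965 and 0.742 in WT. Ndufv1, its partner in the same tip, overlapped between groups in all 3 measures. Its footprints were 84.2 and 83.2 RPKM in the KO-labelled libraries, against 66.6 and 97.8 RPKM in WT, and the TE difference was 0.11 ± 0.37. Ndufs1, the largest subunit and a carrier of iron-sulphur clusters, also overlapped between groups in every measure, with footprints of 63.9 and 105 RPKM in the KO-labelled libraries, against 71.2 and 113 RPKM in WT.

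Ndufs3, a scaffold of the peripheral arm, had RNA of 51.0 and 43.6 RPKM in the KO-labelled libraries, against 38.9 and 38.6 RPKM in WT. Its footprints rested on only 5 and 8 reads in the KO-labelled libraries, against 19 and 16 in WT, and gave 17.4 and 37.0 RPKM, against 27.4 and 30.9 RPKM in WT. Ndufs7, the subunit with the last iron-sulphur cluster before ubiquinone, had TE of 0.459 and 0.971 in the KO-labelled libraries, against 1.09 and 1.39 in WT. The RNA calls of Ndufs3 and Ndufs7 (differences 0.28 and 0.29) were each lost without either WT library, with differences between 0.27 and 0.32 left.

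RNA of 20 of the 24 tested accessory subunits rose, that of 4 (Ndufa7, Ndufa9, Ndufb8, Ndufb9) was not called, and all 24 RNA differences were above 0, with a median of 0.55. The 24 were taken by symbol and include Ndufa4, now known as a subunit of complex IV. All 24 TE differences were below 0, with a median of -1.07, and in 21 the groups did not overlap. Against the WT mean, TE of 24 of 24 was lower in KO replicate 1 (median -1.48) and of 22 of 24 in KO replicate 2 (median -0.95). TE of all tested genes was lower for 63.1% in KO replicate 1 and 55.1% in KO replicate 2. The core and the accessory set were not tested against each other, and the members of both share the same 4 libraries.

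In the Ndufa class, 9 of the 11 tested members had higher RNA by the test. Ndufa4 had the lowest TE difference of all members. It carries a complex I name from its first isolation and is now known as a subunit of complex IV. Its footprints were 368 and 504 RPKM in the KO-labelled libraries, against 2218 and 1096 RPKM in WT, and its RNA was 160 and 145 RPKM in the KO-labelled libraries, against 95.2 and 93.0 RPKM in WT. TE of Ndufa4 was 2.29 and 3.46 in the KO-labelled libraries, against 23.1 and 11.7 in WT, a difference of -2.54 ± 0.47 (adjusted p 0.29). It lay between -2.05 and -3.03 with 1 library left out at a time.

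Ndufa3, whose RNA rose most, had TE of 0.782 and 0.921 in the KO-labelled libraries, against 3.14 and 4.50 in WT (difference -2.15 ± 0.36, adjusted p 0.29). Its footprints were 153 and 203 RPKM in the KO-labelled libraries, against 316 and 461 RPKM in WT. RNA was thus higher and footprints lower in both KO-labelled libraries, and TE combines the 2. Ndufa2, a thioredoxin-fold subunit and the member with the most RNA, had 543 and 564 RPKM of RNA in the KO-labelled libraries, against 343 and 333 RPKM in WT, and TE of 0.580 and 0.871, against 1.60 and 1.61 in WT. Ndufa1, needed for the membrane arm to be built, had RNA of 288 and 330 RPKM in the KO-labelled libraries, against 171 and 167 RPKM in WT, and TE of 1.72 and 1.84, against 4.26 and 5.67 in WT. Ndufa8, the other gene with about 1 log2 unit more RNA, had overlapping footprints of 149 and 198 RPKM in the KO-labelled libraries, against 174 and 151 RPKM in WT.

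Ndufa9, which lies beside the quinone channel and belongs to the short-chain dehydrogenase family, had RNA of 67.9 and 62.4 RPKM in the KO-labelled libraries, against 62.2 and 63.7 RPKM in WT, the lowest RNA difference of the class. Its TE was 1.21 and 1.84 in the KO-labelled libraries, against 2.16 and 2.80 in WT. Ndufa11, a membrane-arm subunit, had the fewest footprint reads among the tested members of the class: its TE of 0.156 and 0.354 in the KO-labelled libraries, against 0.231 and 0.515 in WT, came from 4 and 7 reads, against 9 and 15 in WT. Its RNA rose, with 159 RPKM in both KO-labelled libraries, against 100 and 97.8 RPKM in WT. Ndufa5, Ndufa7, Ndufa10 and Ndufa13 had TE differences of -1.10, -1.29, -0.81 and -1.04, each with non-overlapping groups. RNA of Ndufa7 was not called (0.10 ± 0.064), so its TE value came with footprints of 72.9 and 43.0 RPKM in the KO-labelled libraries, against 148 and 112 RPKM in WT.

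In the Ndufb class, whose members build the distal membrane arm, RNA of 7 of the 9 tested members rose. TE differences lay below 0 in all 9, between -0.33 and -1.69. Ndufb3, a single-pass membrane subunit, had the lowest TE difference, with 4.11 and 4.39 in the KO-labelled libraries, against 11.1 and 17.1 in WT (difference -1.69 ± 0.37, adjusted p 0.29). Its footprints were 511 and 584 RPKM in the KO-labelled libraries, against 1059 and 1563 RPKM in WT. Ndufb6 was close to it, with TE of 0.959 and 1.33 in the KO-labelled libraries, against 3.72 and 3.01 in WT, and footprints of 107 and 142 RPKM, against 308 and 242 RPKM in WT. Ndufb11, an X-linked single-pass subunit, had TE of 0.530 and 0.362 in the KO-labelled libraries, against 0.997 and 1.22 in WT.

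Ndufb7 and Ndufb10, both intermembrane-space subunits, had more RNA without a lower mean footprint level. Footprints of Ndufb7 were 227 and 302 RPKM in the KO-labelled libraries, against 230 and 215 RPKM in WT. Its TE of 1.77 and 2.11 in the KO-labelled libraries, against 3.31 and 3.27 in WT, was still separated, and its p in the authors' deposited table was 0.00824. Footprints of Ndufb10 were 139 and 165 RPKM in the KO-labelled libraries, against 113 and 114 RPKM in WT, beside RNA of 246 and 249 RPKM in the KO-labelled libraries and 149 and 146 RPKM in WT. Its TE difference, -0.33 ± 0.37, was the one nearest 0 in the class. Ndufb9, an LYR-motif subunit, had RNA of 76.2 and 66.3 RPKM in the KO-labelled libraries, against 68.8 and 64.0 RPKM in WT, and overlapped between groups in all 3 measures. Ndufb8 gave the widest gap between replicates among the tested members of the class, taken as a ratio, with footprints of 49.0 and 266 RPKM in the KO-labelled libraries, against 114 and 159 RPKM in WT. Ndufb5 had RNA of 21.1 and 20.4 RPKM in the KO-labelled libraries, against 14.5 and 14.8 RPKM in WT, and a TE difference of -0.74.

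The TE level of Ndufb2 depends in part on the lengths behind it. Its TE was 48.3 and 87.3 in the KO-labelled libraries, against 173 and 209 in WT, the highest of the set. The length that its input values imply was 5628 nucleotides, against 315 nucleotides for its footprints, a ratio of 17.9, where the median of the members was 2.76 and that of all tested genes 2.79. Taken as shares of reads without lengths, footprint share over input share for Ndufb2 was 3.79 and 6.85 in the KO-labelled libraries, against 14.5 and 18.0 in WT. In each library this was still the highest among the members with recovered reads, so its rank does not come from the lengths alone. The order of TE levels between genes rests in part on these lengths. The same length enters all 4 libraries and would cancel between groups in a plain ratio. Through the 1 added to so low an RNA level, it still enters the difference of -1.55 ± 0.42. That difference was -1.60 with 0.5 added in place of 1, and -1.40 with 5 added. Ndufb2 RNA was 2.45 and 2.46 RPKM in the KO-labelled libraries, against 1.98 and 1.85 RPKM in WT (difference 0.25 on log2 of RPKM plus 1, which understates a change at so low a level), and that call was lost whichever library was left out.

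The 2 Ndufc subunits, which sit together on the membrane arm, both had more RNA in the KO-labelled libraries. Ndufc2 had footprints of 126 and 177 RPKM in the KO-labelled libraries, against 359 and 489 RPKM in WT, with the smallest unadjusted footprint p of the members, 0.00707 (adjusted p 0.138). Its TE was 1.98 and 2.91 in the KO-labelled libraries, against 8.06 and 10.3 in WT (difference -1.93 ± 0.37). Ndufc1 had TE of 3.03 and 1.35 in the KO-labelled libraries, against 3.11 and 4.63 in WT, where KO replicate 1 lay just below the lower WT library. Its footprints overlapped, with 301 and 144 RPKM in the KO-labelled libraries, against 210 and 301 RPKM in WT.

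Ndufs4 and Ndufv3 are the tested accessory subunits with Ndufs or Ndufv symbols. Ndufs4, a peripheral-arm subunit whose loss causes Leigh syndrome in humans, had footprints of 36.1 and 90.0 RPKM in the KO-labelled libraries, against 133 and 165 RPKM in WT. Its TE was 1.31 and 3.22 in the KO-labelled libraries, against 5.74 and 7.99 in WT (difference -1.72 ± 0.53). Ndufv3, at the NADH-oxidising tip, had RNA of 63.3 and 63.1 RPKM in the KO-labelled libraries, against 46.8 and 42.0 RPKM in WT, and TE of 0.417 and 0.435, against 0.629 and 0.926 in WT.

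Grouped by the assembly module in which a subunit is built, the 6 modules had RNA medians above 0 and TE medians below 0. The 3 tested subunits of the ND1 module (Ndufa3, Ndufa8, Ndufa13) had the highest RNA median, 1.01, and a TE median of -1.04. The 4 tested of the ND2 module had RNA and TE medians of 0.54 and -1.19, and the 4 of the ND4 module 0.54 and -1.04. The 5 tested of the ND5 module had medians of 0.25 and -0.77. In the peripheral arm, the 6 tested of the N module had medians of 0.42 and -1.01, and the 5 of the Q module 0.29 and -0.89. These medians rest on 3 to 6 genes each and the modules were not tested against each other.

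The assembly factors were thinly covered, and only 2 of 8 could be tested. Ndufaf3, which helps to build the Q module, had RNA of 59.2 and 56.1 RPKM in the KO-labelled libraries, against 42.2 and 40.0 RPKM in WT, and its RNA rose. Its footprints were 198 and 52.6 RPKM in the KO-labelled libraries, against 86.2 and 124 RPKM in WT, so the KO-labelled libraries lay on either side of WT. Ndufaf7, a methyltransferase needed for complex I assembly, was a member whose RNA fell, with 12.8 and 12.5 RPKM in the KO-labelled libraries, against 14.7 and 14.8 RPKM in WT (difference -0.21 ± 0.071, adjusted p 0.038). This call was lost without either WT library and without KO replicate 2. It was also lost without a filter, with median centring, with the replicate block and with limma-voom. TE of Ndufaf7 was 1.29 and 2.08 in the KO-labelled libraries, against 2.08 and 2.35 in WT.

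The 13 untested members still had RNA values. In 11 of them both KO-labelled libraries lay above both WT libraries, and the share over all untested genes was not computed. In Ndufaf1, which acts early in membrane-arm assembly, both lay below, with 16.7 and 14.4 RPKM in the KO-labelled libraries, against 17.7 and 18.1 RPKM in WT. The Ndufb4 paralog Ndufb4c was at or near 0 throughout. Several of these mRNAs were abundant yet had almost no footprints: Ndufs5 had 123 and 114 RPKM of RNA in the KO-labelled libraries, against 83.9 and 78.2 RPKM in WT, but only 1 and 0 footprint reads, against 3 and 1 in WT. Ndufa12 had 160 and 177 RPKM of RNA in the KO-labelled libraries, against 109 and 106 RPKM in WT, with 4 and 1 footprint reads, against 7 and 2 in WT. Ndufb4 had footprints in WT replicate 1 alone, at 11.8 RPKM. Near-identical pseudogene copies can take or void short reads of such genes, and how multiply mapping reads were counted is not stated, so their footprint levels are uncertain. Of the 4 rows left out for a symbol ending in -ps, Ndufb1-ps had footprints of 305 and 277 RPKM in the KO-labelled libraries, against 513 and 624 RPKM in WT. That row was left out by its symbol alone, and whether it codes for a subunit was not tested.

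The same contrast appeared in plain shares of reads. Per 10000 assigned footprint reads, all members together held 20.4 (95% Wilson interval 18.9 to 21.9) and 27.7 (25.8 to 29.8) in the KO-labelled libraries, against 38.0 (36.7 to 39.3) and 36.9 (35.5 to 38.4) in WT. These intervals cover counting error only. Per 10000 assigned input reads, they held 64.5 and 65.0 in the KO-labelled libraries, against 45.3 and 43.9 in WT. Ndufs8 and Ndufa4 took many of the footprint reads of WT replicate 1. Without both, a choice made after their values were seen, the other 31 tested members held 17.8 and 24.4 per 10000 in the KO-labelled libraries, against 26.2 and 31.6 in WT, so that KO replicate 2 came close to WT replicate 1. Accessory subunits, with Ndufa4 counted among them, held 13.6 and 19.1 footprint reads per 10000 in the KO-labelled libraries, against 26.2 and 27.4 in WT. The nuclear core held 4.97 and 7.26, against 10.2 and 7.71 in WT.

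**Figure D3:**
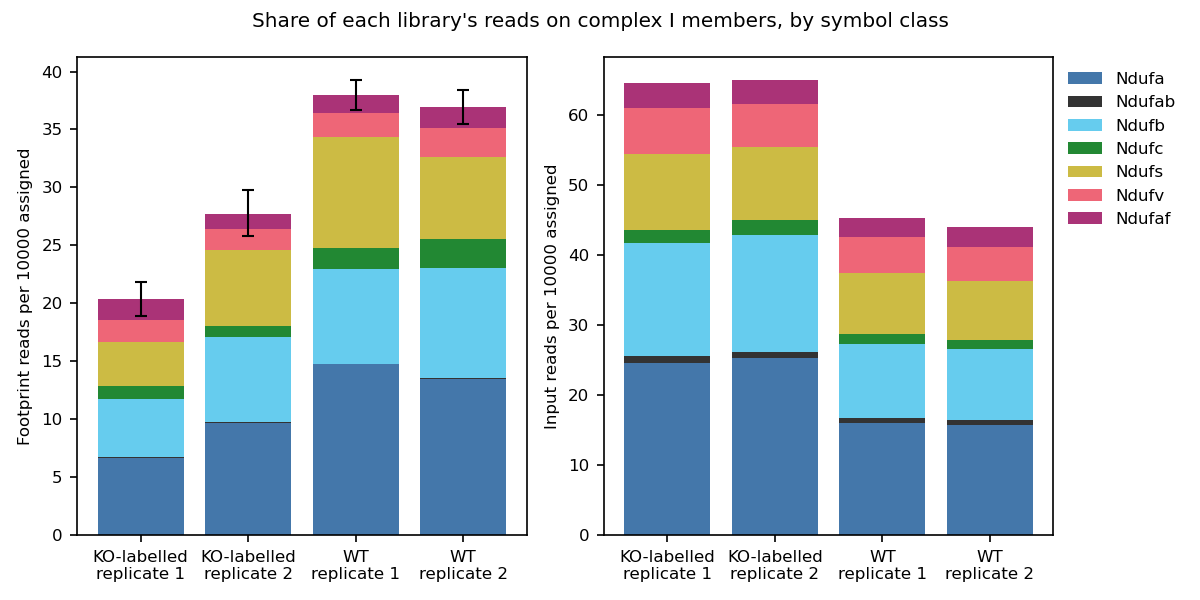
Stacked bars give the reads on members per 10000 assigned reads in each library, by symbol class, for footprints (left) and input RNA (right); whiskers are 95% Wilson intervals of the footprint total. The footprint totals are 20.4 and 27.7 in the KO-labelled libraries, below 38.0 and 36.9 in WT, and the input totals are 64.5 and 65.0, above 45.3 and 43.9 in WT.

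Footprint and RNA differences were unrelated among the members, unlike over all genes. Across the 33 members the Pearson correlation of the footprint difference with the RNA difference was 0.0061 (Spearman 0.070), whereas across all 6389 tested genes it was 0.607 (Spearman 0.419). These describe genes of the same 4 libraries, which are not independent replicates, and the members span a narrower RNA range than all genes do. Ndufb7 and Ndufb10 had RNA differences of 1.00 and 0.74 beside footprint differences of 0.23 and 0.41. Ndufa3, Ndufa4 and Ndufs8 had RNA differences of 1.03, 0.69 and 0.76 beside footprint differences of -1.12, -1.85 and -1.46.

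**Figure D4:**
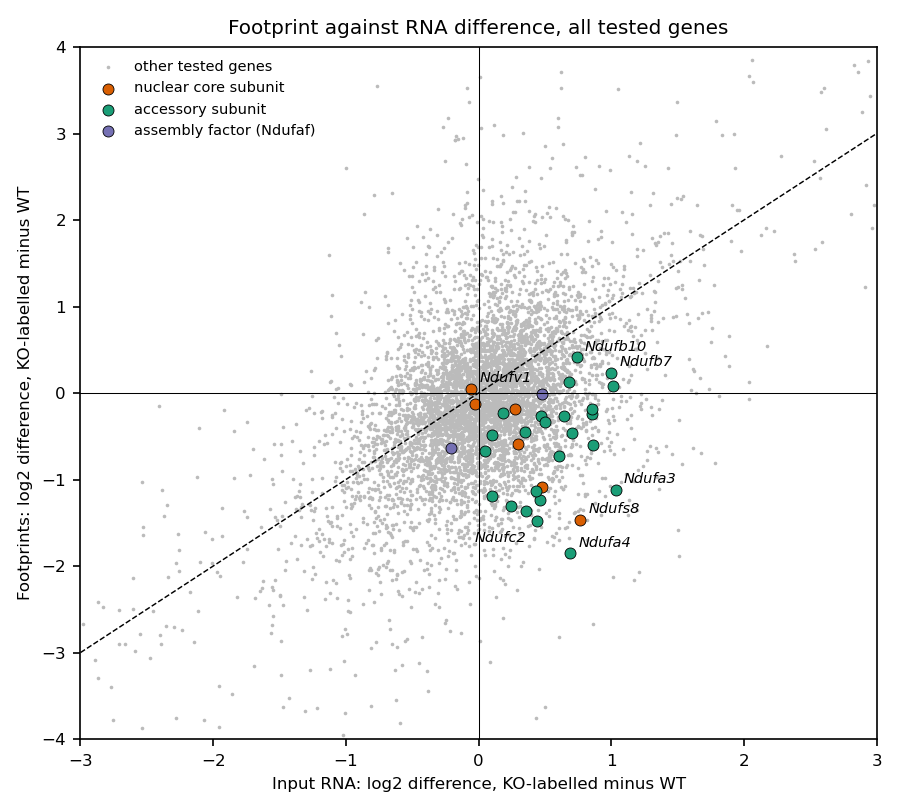
Footprint log2 difference against input RNA log2 difference (KO-labelled minus WT) for 32 tested members, coloured by kind, over the other 6356 tested genes in grey, 100 of which lie outside the axes; the dashed line marks equal differences. Most members lie below the line, right of 0 in RNA, and Ndufv1 lies above it.

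Complex I members are short, and TE differences went with coding length in all genes. The coding length implied by the footprint values had a median of 537 nucleotides over the tested members, against 1563 over all tested genes. It ran from 156 for Ndufb3 to 2192 for Ndufs1. Such a length can be too short by a whole factor, as the recovery takes the smallest whole reads that fit. The Ndufb3 length is therefore uncertain. Under 400 nucleotides, the median TE difference was -1.55 over 11 members and -1.16 over all 271 tested genes of that length. From 400 to 700 nucleotides it was -0.83 over 12 members and -0.59 over all 624 genes. From 700 to 1000 it was -0.74 over 3 members and -0.33 over 789 genes, and from 1000 to 2000 it was -0.58 over 6 members and -0.091 over 2356 genes. In these 4 ranges the members' median minus that of all genes lay between -0.49 and -0.24, whereas over all lengths together it was -0.76. Across members, the TE difference correlated with log2 coding length at r = 0.635 (Spearman 0.642, n = 33), and across all tested genes at 0.229 (Spearman 0.241). The RNA difference of members correlated with it at -0.604 (Spearman -0.54), where over all genes the value was -0.018. The long core genes Ndufs1 and Ndufv1 had TE differences near 0, -0.10 and 0.11. The part of length in the differences was not tested.

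**Figure D5:**
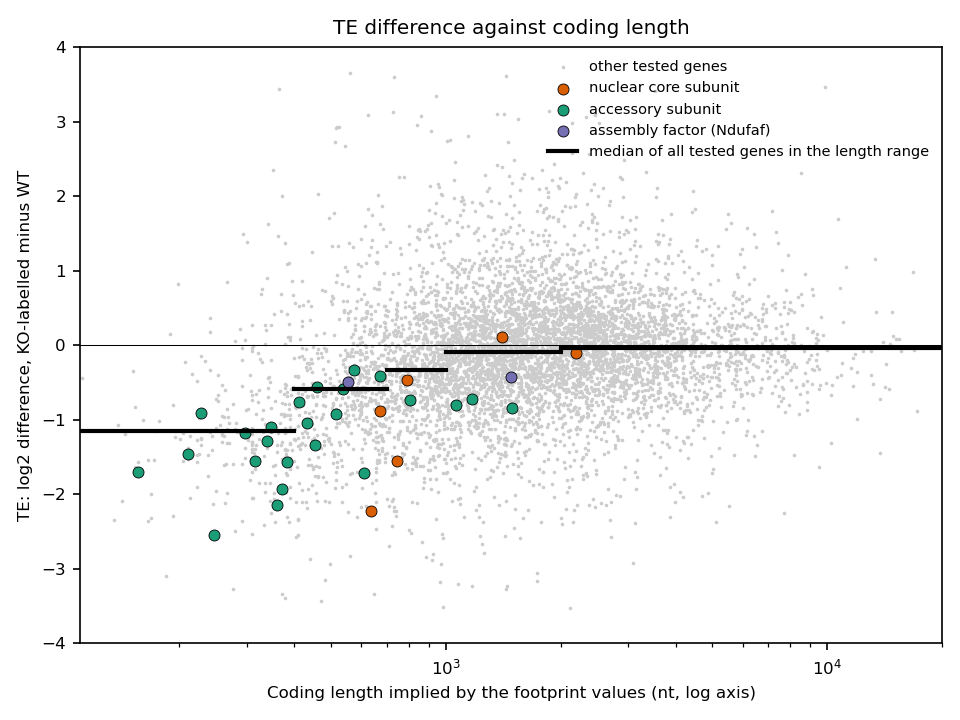
TE log2 difference (KO-labelled minus WT) against coding length on a log axis, for 32 tested members coloured by kind and the other tested genes in grey; black bars are medians of all tested genes in 5 length ranges. Members under 400 nucleotides lie between -2.54 and -0.91, and the bars climb from -1.16 for the shortest genes to -0.039 for the longest.

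Other parts of the respiratory chain gave the following values on the same scale. The 5 tested complex I subunits encoded in mitochondrial DNA all had more RNA in the KO-labelled libraries (5 of 5 rose, median 1.09), with a median TE difference of -1.33. Among them, mt-Nd4, a proton-pumping subunit, had footprints of 71.8 and 111 RPKM in the KO-labelled libraries, against 327 and 128 RPKM in WT. mt-Nd1, next to the quinone channel, had 184 and 1606 RPKM in the KO-labelled libraries, against 302 and 486 RPKM in WT, so that the KO-labelled libraries lay on either side of WT. These transcripts are read by mitochondrial ribosomes, and footprints of the different kinds of ribosome were not separated here. Median TE differences were -0.69 over 4 complex II genes, -1.13 over 9 of complex III, -1.21 over 7 of complex IV and -0.76 over 12 of complex V, beside RNA medians of 0.14, 0.20, 0.51 and 0.68. RNA of 1, 4, 6 and 9 of these rose and that of 1, 1, 0 and 1 fell. The members' values thus lay within the range of the other complexes, and complex I was not tested against them. Of 12 assembly factors without an Nduf name, 4 were tested, and RNA of 3 fell (Acad9, Dmac1 and Aifm1) while that of Foxred1 was not called. Dmac1, a membrane-arm factor, had RNA of 38.5 and 37.8 RPKM in the KO-labelled libraries, against 58.4 and 59.2 RPKM in WT. Its footprints were 49.5 and 54.8 RPKM in the KO-labelled libraries, against 239 and 215 RPKM in WT, from 6 and 5 reads, against 70 and 47 in WT. It passed the filter on low genes only through the WT libraries, where it is high.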

How the data were processed

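Ribosome footprints and input RNA were measured in 4 libraries of mouse leukaemia stem cells, 2 labelled KO and 2 labelled WT, grouped by title. The submitters' processing notes list HISAT2 2.1.0, featureCounts, CASAVA and DESeq2, and build hg38, a human build, although the samples are mouse. Other upstream steps are not given in the sources used here. Footprint values in the deposited table had the form of RPKM with 1 added, a unit read from the values. Its TE is the deposited ratio of footprint to input value. Its p-value column is headed adj.p and holds the deposited p-values, which matched values without adjustment.

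Input RNA was computed as footprint value over TE, minus 1. From the steps of the RPKM values, whole reads could be recovered for 10536 of 10536 genes with footprints in 2 libraries and 15935 of 15988 with input (tolerance 0.002 reads). Tested on simulated data, this recovered the exact reads of 95.2% of 10239 genes. The smallest whole reads that fit were taken, so a gene's reads and implied length can both be too small by the same factor. These reads set the filter (20 reads per 1000000 in 2 libraries), the shares and the limma-voom alternative. limma 3.58.1 (R 4.3.3) with a mean-variance trend was run on log2(RPKM + 1) and log2(TE) with group as the only term, and p-values were adjusted over 6389 genes. As the values are not counts, this fit is the main one. Depth was 274183 to 878068 footprint reads per library, so a member with few reads has a wide counting error.

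Replicate numbers did not pair the libraries: same-numbered deviations correlated at 0.023 for footprints, -0.335 for RNA and 0.008 for TE. Alternatives were other pseudocounts, filters and centring, each library left out, a replicate block and limma-voom.

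The members and gene lists were chosen with earlier results of these data known. Genes named by rule are the nuclear core subunits, the extremes of each symbol class in each measure, the member with most RNA per class, Ndufa4 as a paralog, and Rreb1. Other members are named to account for the set, with their values known. Some listed marker genes were not analysed here, and 1 member that counts in the totals is not reported by name or drawn. Upstream windows are from RefSeq (GRCm38.p6) and cover 40 of 46 members.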

Additional observations from a re-analysis of the deposited data

How the results depend on the processing

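Each library rests on few reads: the tested members had medians of 19 and 19 footprint reads in the KO-labelled libraries, against 71 and 51 in WT, so footprint and TE values of single members carry wide errors, and no p-value here covers more than 2 libraries per group. Over other pseudocounts, filters, centring, the replicate block and the limma-voom fits, 0 members were called for footprints or TE, and the medians lay on the same side of 0. The members' RNA calls lower were 1 (in place of 2) without a filter, with median centring, with the replicate block and with limma-voom, where Ndufaf7 was no longer called. The replicate block gave 24 RNA calls higher and 1 lower among the members, and 32 footprint calls over all genes in place of 68, a number that was 110 with a pseudocount of 5, 6 with a filter of 5 per 1000000 and 0 without a filter. A crossed replicate block was added after the RNA deviations of these same libraries were seen, and no label gives that pairing. It called 26 members higher and 2 lower, which is no independent check, and it counts among the alternatives below. The Ndufaf3 footprint difference was 0.045 with median centring and 0.126 with limma-voom, and the Ndufs1 TE difference was 0.032 with median centring. These lay on the other side of 0 from their reported values near 0, and the cause was not tested.

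With 1 library left out at a time, the lone library of a group was assumed to vary like the others. Footprint calls lower among the members ranged from 0 to 4, their footprint median from -0.788 to -0.309, TE calls lower from 0 to 9, TE medians from -1.146 to -0.81, RNA calls higher from 20 to 26 and RNA calls lower from 0 to 2. The 4 and the 9 came without KO replicate 2, and over all genes the footprint calls ranged from 0 to 1097. Some members changed sign. For footprints, Ndufs1 ranged from -0.481 to 0.225, Ndufs3 from -0.71 to 0.335, Ndufv1 from -0.222 to 0.326, Ndufa11 from -0.465 to 0.718, Ndufb9 from -1.028 to 0.061, Ndufc1 from -0.799 to 0.261 and Ndufaf3 from -0.96 to 0.933. For RNA, Ndufs1 ranged from -0.079 to 0.032, Ndufv1 from -0.143 to 0.026, Ndufa9 from -0.013 to 0.108 and Ndufb9 from -0.001 to 0.196. For TE, Ndufs1 ranged from -0.458 to 0.25, Ndufs3 from -1.099 to 0.168, Ndufv1 from -0.17 to 0.391, Ndufa11 from -1.146 to 0.036 and Ndufaf3 from -1.401 to 0.417. Of 714 values of the 21 named members under all alternatives, 663 had the direction and the side of the threshold reported, 25 changed sign, 19 lost a call and 7 gained one.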
